A study of Mus musculus with 12 samples.

Results

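The collagen gene family of the mouse endometrium comprised 44 genes here, chosen as the array rows that carry exactly 1 gene symbol of the form Col, number, a, number, out of 19938 genes with a single symbol. Both Col6a5 and Col6a6 had 2 rows, and each gene was represented by its row with the highest mean over the 12 arrays. The genes fell into 11 fibrillar collagens, 6 basement membrane collagens of type IV and 27 others. The mean signal of 30 of the 44 genes lay above 7.28, the median of all row means on the log2 scale, and that of the other 14 lay below it.

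Endometrial RNA was measured on 12 Affymetrix Mouse Gene 1.0 ST arrays in 3 groups of 4 pools, with RNA of 4 females in each pool and 16 females in each group. All females were CBAF1 mice, the F1 offspring of CBA and C57Bl/6 mice, aged 9 to 16 weeks. The groups were unmated control females that the labels place in estrus, females mated with intact BALB/c males, and females mated with vasectomised BALB/c males, whose ejaculate lacks sperm. Males were 12 to 28 weeks old, with vasectomy at 6 to 8 weeks of age. Tissue of mated females was taken 8 h after mating at night, whereas the study's methods place collection from controls in the evening of pro-estrus, so that mating, cycle stage and hour of collection cannot be told apart in a comparison with the controls. The comparisons ask what mating, with or without sperm and other products of testis and epididymis, does to transcripts of the uterine lining. All spreads are between pools, not between individual females.

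Collagens are extracellular matrix proteins whose chains wind around each other in trimeric helices. The fibrillar types, led by types I and III, assemble into the fibrils that carry tension in connective tissue, type IV forms the sheet-like network of basement membranes beneath epithelium and around vessels, and type VI forms beaded microfibrils that connect cells with the surrounding matrix. In type VI, the chains encoded by Col6a1 and Col6a2 combine with a further chain, most often that encoded by Col6a3. Uterine stromal fibroblasts make much of the fibrillar and type VI collagen of the endometrium, a matrix that is remodelled over the estrous cycle and when the stroma decidualizes.

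The clearest difference in the family concerned the type VI chains, so the stretch just upstream of the start of the RefSeq transcript is given for the 3 chains of the common trimer. Col6a1 and Col6a2 are adjacent on chromosome 10, with 0 protein-coding genes between them, and Col6a3 lies on chromosome 1. The stretches are on the minus strand of GRCm38.p6 at chr10:76726045-76726294 for Col6a1, chr10:76623631-76623880 for Col6a2 and chr1:90844002-90844221 for Col6a3. They are written 5′ to 3′, and capitals mark matches, on either strand, to 4 short motifs. The GC box was searched as GGGCGG. The TATA box of core promoters was searched as TATAAA. The CCAAT box was searched by the letters of its name. The site of the AP-1 transcription factors was searched as TGANTCA, where N is any base. No stretch held matches that overlap.
Col6a1: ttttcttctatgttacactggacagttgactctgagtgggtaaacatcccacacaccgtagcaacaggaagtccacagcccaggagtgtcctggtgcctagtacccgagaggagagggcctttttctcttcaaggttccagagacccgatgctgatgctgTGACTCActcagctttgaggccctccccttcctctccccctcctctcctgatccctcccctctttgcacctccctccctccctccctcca
Col6a2: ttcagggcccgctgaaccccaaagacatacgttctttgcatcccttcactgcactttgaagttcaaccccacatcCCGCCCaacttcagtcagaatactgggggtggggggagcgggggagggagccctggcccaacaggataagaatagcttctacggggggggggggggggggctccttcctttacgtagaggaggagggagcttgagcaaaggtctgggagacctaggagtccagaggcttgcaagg
Col6a3: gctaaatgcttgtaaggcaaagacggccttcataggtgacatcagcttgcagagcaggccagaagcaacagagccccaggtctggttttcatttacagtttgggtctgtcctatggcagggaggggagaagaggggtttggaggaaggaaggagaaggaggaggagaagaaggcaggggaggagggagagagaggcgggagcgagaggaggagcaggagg
The GC content was 56.0% for Col6a1, 59.2% for Col6a2 and 56.4% for Col6a3. The stretch of Col6a1 held 1 AP-1 match, that of Col6a2 held 1 GC box match, and that of Col6a3 held 0 matches to the 4 motifs. Over all 32851 RefSeq promoter windows of 300 bases, 35.7% held a GC box, 13.6% a TATA box, 37.4% a CCAAT box and 7.81% an AP-1 match. Of the 44 collagen genes, 35 had such a window and 9 did not. Their 38 windows held a GC box in 60.5%, a TATA box in 13.2%, a CCAAT box in 34.2% and an AP-1 match in 2.63%. These matches are descriptions of letters and were not tested.

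A gene was called when its fold-change was at least 1.5 and its limma p, adjusted by Benjamini-Hochberg over all 35556 array rows, was at most 0.05. By that rule 4 collagen genes fell after mating with intact males, namely Col6a3, Col6a2, Col6a1 and Col1a1, beside 2.11% of all genes, and 1 rose, Col12a1, beside 2.78% of all genes. After mating with vasectomised males 1 gene fell, Col6a3, beside 0.657% of all genes, and 1 rose, Col12a1, beside 1.19% of all genes. Both comparisons use the same 4 control arrays. Between the mated groups 0 collagen genes were called, beside 0.627% of all genes called higher and 0.271% called lower, and 3 of 44 had an unadjusted p under 0.05 in limma, beside 17.6% of all genes. Without variance moderation Col6a3 was the 1 collagen that fell in each comparison with controls, 0 rose, and 0 were called between the mated groups.

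**Figure D1:**
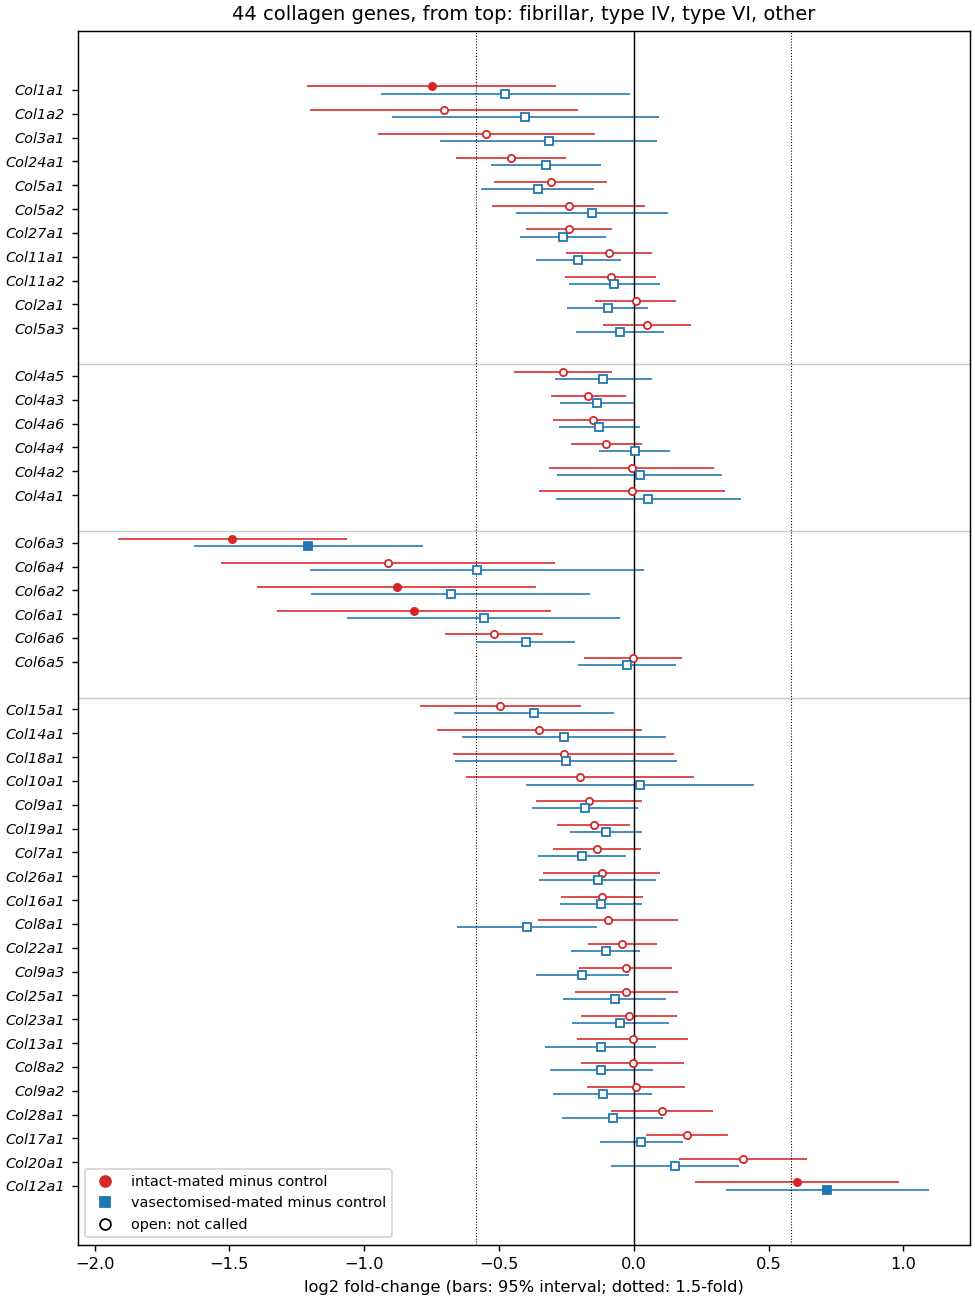
Log2 fold-change of each of the 44 collagen genes after mating with intact males (red circles) and vasectomised males (blue squares) against unmated controls, with 95% intervals over 4 pools per group, filled where the gene was called, and dotted lines at 1.5-fold. Col6a3 lies farthest from 0 at -1.49 and -1.21, Col12a1 is the called gene on the positive side, and the type IV collagens lie between -0.26 and 0.05.

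Col6a3, which encodes the largest chain of the common type VI trimer, was the collagen with the greatest difference in both comparisons with controls. Its log2 values were 11.13, 10.88, 10.60 and 10.49 in the controls, 8.94, 9.34, 9.30 and 9.58 after intact mating, and 10.06, 9.15, 9.56 and 9.52 after vasectomised mating. Every mated pool lay below every control pool, and the mated groups overlapped. Col6a3 fell 2.81-fold after intact mating, a log2 fold-change of -1.49 with a standard error of 0.19 and an adjusted p of 0.000423. It fell 2.31-fold after vasectomised mating, a log2 fold-change of -1.21 with an adjusted p of 0.00521. The intact-mated group lay 0.28 below the vasectomised-mated group, a log2 difference of -0.28 with a 95% interval of -0.71 to 0.14 and an adjusted p of 0.504. Col6a3 was called in 27 of 27 alternative analyses in each comparison with controls, over which the log2 fold-change ran from -1.72 to -1.26 after intact mating and from -1.44 to -0.98 after vasectomised mating. Because whole tissue was measured, fewer cells of a type and less RNA per cell cannot be told apart.

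The partner chains were lower as well, with wider spreads. Col6a2 values were 10.997, 10.93, 10.26 and 10.24 in the controls, 9.16, 9.74, 9.89 and 10.13 after intact mating, and 10.36, 9.57, 9.84 and 9.94 after vasectomised mating. The intact-mated pools were all below the controls, while the highest vasectomised-mated pool lay among them. Col6a2 fell 1.84-fold after intact mating (log2 -0.88, adjusted p = 0.0350), and its difference of -0.68 after vasectomised mating was not called (adjusted p = 0.143). Col6a1 values were 10.99, 10.79, 10.26 and 10.17 in the controls, 9.26, 9.70, 9.89 and 10.11 after intact mating, and 10.50, 9.63, 9.84 and 10.02 after vasectomised mating. The same ordering held, with the intact-mated pools all below the controls and 1 vasectomised-mated pool within their range. Col6a1 fell 1.76-fold after intact mating (log2 -0.81, adjusted p = 0.0452), and its log2 fold-change after vasectomised mating was -0.56 (adjusted p = 0.221). The calls of Col6a1 and Col6a2 held in 14 and 17 of 27 alternatives. Both were lost without control 1, control 2 or any of intact pools 1, 2 and 3, and that of Col6a1 also without vasectomised pool 3 or 4.

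**Figure D2:**
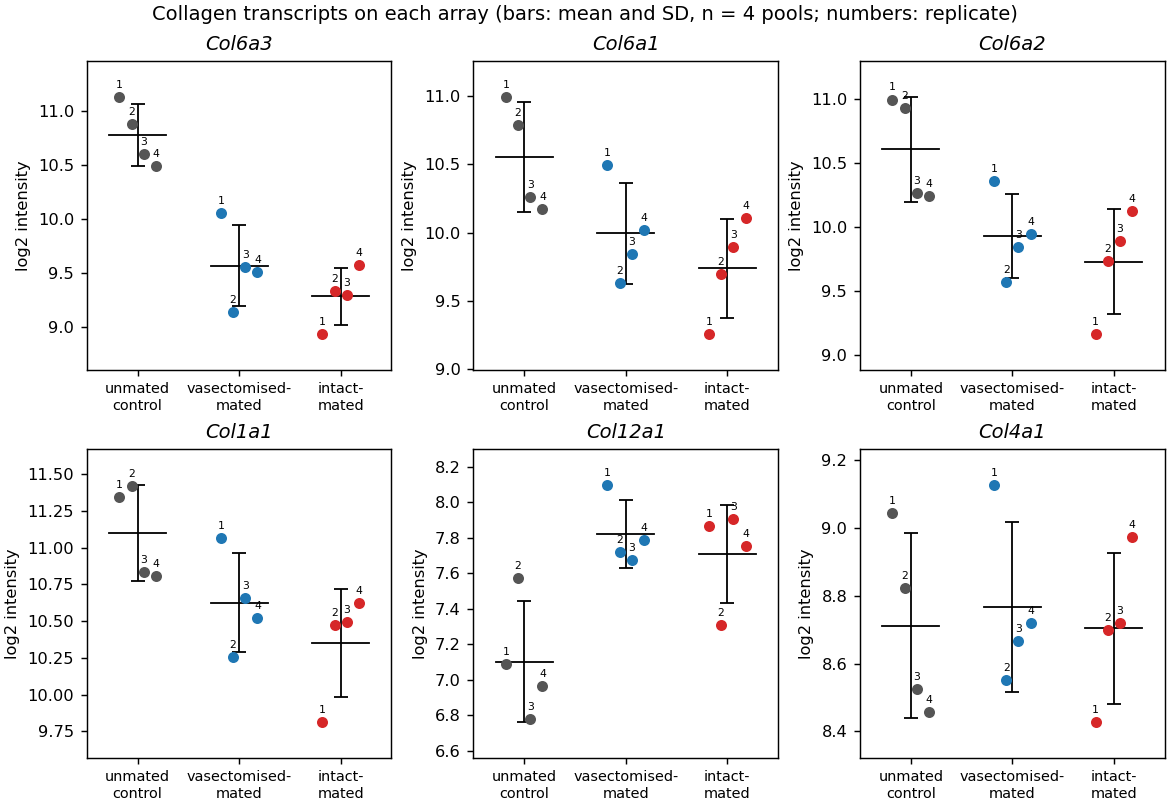
Log2 intensity of Col6a3, Col6a1, Col6a2, Col1a1, Col12a1 and Col4a1 on each of the 12 arrays, grouped as unmated control, vasectomised-mated and intact-mated, with the replicate number beside each point and bars for mean and SD of 4 pools. Col6a3 separates every mated pool from every control, Col12a1 does so after vasectomised mating, and the groups of Col4a1 overlap.

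The other type VI genes, Col6a4, Col6a5 and Col6a6, encode chains related to that of Col6a3 and lie side by side on chromosome 9. Col6a4 values were 12.06, 11.64, 11.01 and 10.98 in the controls, 9.94, 10.54, 10.58 and 10.99 after intact mating, and 11.42, 10.37, 10.81 and 10.77 after vasectomised mating. Its log2 fold-changes of -0.91 (adjusted p = 0.0650) and -0.58 (adjusted p = 0.300) were as large as those of Col6a1 but were not called, and its SD between control pools was 0.52. Among the 27 alternatives Col6a4 was called in 4 after intact mating and in 0 after vasectomised mating. Col6a6 values were 8.78, 8.73, 8.58 and 8.44 in the controls, 8.05, 8.08, 8.06 and 8.26 after intact mating, and 8.34, 8.24, 8.16 and 8.18 after vasectomised mating. Here each mated pool was below each control with narrow spreads, and the log2 fold-changes were -0.52 (adjusted p = 0.00182) and -0.40 (adjusted p = 0.0197), both under the 1.5-fold threshold. The second row of Col6a6 gave -0.61 after intact mating, past both thresholds (adjusted p = 0.0395), and -0.40 after vasectomised mating (adjusted p = 0.224). Col6a5 differed from the controls by 0.00 and -0.02, with a control mean of 6.91, below the median of all rows. Its second row gave -0.19 after intact mating (adjusted p = 0.156), 0.01 after vasectomised mating and -0.20 between the mated groups (adjusted p = 0.211). The median log2 fold-change of the 6 type VI genes was -0.85 after intact mating and -0.57 after vasectomised mating, where the median of all genes was 0.01 and -0.01. It was -0.48 and -0.25 against controls 3 and 4 only, and -1.19 and -0.95 against controls 1 and 2 only.

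The type VI chains did not move by equal amounts. The difference between Col6a3 and Col6a1 within an array, whose absolute size depends on the probes and carries no meaning, averaged 0.22 ± 0.13 in the controls, -0.45 ± 0.13 after intact mating and -0.43 ± 0.10 after vasectomised mating (log2, SD, n = 4). In the controls it was 0.14, 0.09, 0.34 and 0.32, and the highest value among the mated pools was -0.29. The difference between Col6a3 and Col6a2 shifted in the same direction, from 0.17 ± 0.17 to -0.44 ± 0.17 and -0.36 ± 0.08. The difference between Col6a1 and Col6a2 shifted less, from -0.05 ± 0.06 in the controls to 0.01 ± 0.06 after intact mating and 0.07 ± 0.06 after vasectomised mating. These pairs were chosen after their values were seen, so the differences are given as a description without a test.

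**Figure D3:**
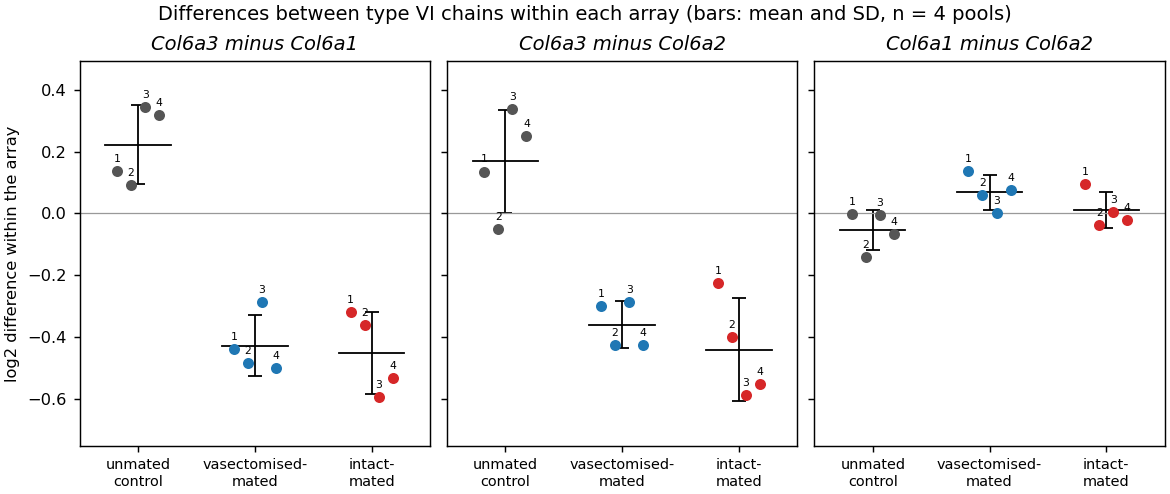
Log2 difference between pairs of type VI chains within each array, by group, with replicate numbers, mean and SD of 4 pools. For Col6a3 minus Col6a1 every mated pool lies below every control, the group means being 0.22, -0.43 and -0.45, whereas for Col6a1 minus Col6a2 they are -0.05, 0.07 and 0.01. The position of 0 depends on the probes.

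Among the fibrillar collagens, Col1a1 and Col1a2 encode the chains of type I collagen, the main fibril protein of connective tissue. Col1a1 values were 11.34, 11.42, 10.83 and 10.81 in the controls, 9.81, 10.47, 10.49 and 10.62 after intact mating, and 11.07, 10.26, 10.65 and 10.52 after vasectomised mating. The intact-mated pools were all below the controls and 1 vasectomised-mated pool lay among them. Col1a1 fell 1.68-fold after intact mating (log2 -0.75, adjusted p = 0.0434), and its log2 fold-change of -0.48 after vasectomised mating was not called (adjusted p = 0.252). The call held in 13 of 27 alternatives and was lost without control 1, control 2, vasectomised pool 3 or 4, or any of the 4 intact pools. Col1a2 was not called, with log2 fold-changes of -0.70 (adjusted p = 0.0742) and -0.40 (adjusted p = 0.380). Among the 27 alternatives it was called in 4 after intact mating and in 0 after vasectomised mating. It tracked Col1a1 on each array, the difference between them being 0.41 ± 0.08 in the controls, 0.36 ± 0.03 after intact mating and 0.33 ± 0.05 after vasectomised mating.

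Type III collagen, encoded by Col3a1, forms thin fibrils with type I and gave -0.55 (adjusted p = 0.0862) and -0.31 (adjusted p = 0.399). Type V collagen regulates how wide fibrils grow. Its genes gave -0.31 and -0.36 for Col5a1, -0.24 and -0.16 for Col5a2, and 0.05 and -0.05 for Col5a3. Col24a1 showed no overlap between mated and control pools, at 7.05 to 7.41 in the controls, 6.57 to 6.91 after intact mating and 6.77 to 6.93 after vasectomised mating. Its log2 fold-change of -0.45 after intact mating passed the adjusted p alone (0.00875), and that of -0.33 after vasectomised mating did not (adjusted p = 0.0791). Col27a1 likewise had no overlap, at -0.24 (adjusted p = 0.0600) and -0.26 (adjusted p = 0.0693). The collagens best known from cartilage, Col2a1, Col11a1 and Col11a2, gave 0.01, -0.09 and -0.09 after intact mating and -0.10, -0.21 and -0.07 after vasectomised mating. Of the 11 fibrillar genes, 9 had a negative log2 fold-change after intact mating and 11 after vasectomised mating, with medians of -0.24 and -0.26.

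No type IV collagen gene was called, with 3 of 6 at an unadjusted p under 0.05 in limma after intact mating and 0 after vasectomised mating, beside 27.8% and 20% of all genes. Col4a1 and Col4a2, which encode the chains of the common basement membrane network, sit head to head on chromosome 8 with 78 bases shared by their promoter windows. Col4a1 values were 9.04, 8.82, 8.53 and 8.46 in the controls, 8.43, 8.70, 8.72 and 8.97 after intact mating, and 9.13, 8.55, 8.67 and 8.72 after vasectomised mating, so that the groups overlapped fully. Its log2 fold-change was -0.01 after intact mating, with a 95% interval of -0.35 to 0.34, and 0.05 after vasectomised mating, with an interval of -0.29 to 0.40. Col4a2 gave -0.01, with an interval of -0.31 to 0.30, and 0.02, with an interval of -0.28 to 0.33. A change of 1.5-fold in either direction, 0.585 on the log2 scale, lies outside these intervals. The directions of these near-zero values turned with several settings, including the scaling of the arrays.

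The chains encoded by Col4a3, Col4a4 and Col4a5 form the network of specialised membranes such as the glomerular one. They gave -0.17, -0.10 and -0.26 after intact mating and -0.14, 0.00 and -0.11 after vasectomised mating. Col4a6, the neighbour of Col4a5 on the X chromosome, gave -0.15 and -0.13. The lowest adjusted p among the 6 genes was that of Col4a5 after intact mating, at 0.0671. Col4a5 was also the collagen that was lower in every intact-mated pool than in every vasectomised-mated pool, 7.43 to 7.56 against 7.59 to 7.65, with an adjusted p of 0.383. The medians of the type IV genes were -0.13 and -0.05.

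Among the remaining 21 collagens only Col12a1, which encodes a collagen that decorates fibrils, was called. Its values were 7.09, 7.57, 6.78 and 6.96 in the controls, 7.87, 7.31, 7.90 and 7.75 after intact mating, and 8.10, 7.72, 7.67 and 7.79 after vasectomised mating. Every vasectomised-mated pool was above every control, and intact pool 2 lay within the control range. Col12a1 rose 1.65-fold after vasectomised mating (log2 0.72, adjusted p = 0.0385) and 1.52-fold after intact mating (log2 0.61, adjusted p = 0.0450). The 2 calls held in 14 and 12 of 27 alternatives. The call after vasectomised mating was lost without control 1, 3 or 4, any vasectomised pool, or intact pool 4. The call after intact mating was lost without control 1, 3 or 4, vasectomised pool 2, 3 or 4, or intact pool 1, 3 or 4.

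Another 3 genes are named because of their adjusted or raw p, after their values were seen. Col15a1, a collagen of the zone next to basement membranes, gave -0.50 after intact mating (adjusted p = 0.0388), under the 1.5-fold threshold, and -0.37 after vasectomised mating (adjusted p = 0.166). Col20a1, a fibril-associated collagen, gave 0.41 after intact mating (adjusted p = 0.0351), also under 1.5-fold, and 0.15 after vasectomised mating (adjusted p = 0.505). It was higher in every intact-mated pool, 8.05 to 8.29, than in every vasectomised-mated pool, 7.80 to 8.03, with an adjusted p of 0.260. Col8a1, a short-chain collagen of vessel walls and of the cornea, gave -0.10 and -0.40, and was 0.30 higher after intact than after vasectomised mating (adjusted p = 0.214).

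Of the other fibril-associated genes, Col9a1, Col9a2, Col9a3, Col14a1, Col16a1, Col19a1 and Col22a1 gave log2 fold-changes from -0.35, for Col14a1, to 0.01 after intact mating, and from -0.26 to -0.10 after vasectomised mating. The transmembrane collagens Col13a1, Col17a1, Col23a1 and Col25a1 ranged from -0.03 to 0.20 and from -0.12 to 0.03. The upper ends are those of Col17a1 (adjusted p = 0.106 after intact mating). Col17a1 was 0.17 higher after intact than after vasectomised mating (adjusted p = 0.239). Col18a1, the relative of Col15a1 from which endostatin is cut, gave -0.26 and -0.25. Col7a1, which anchors epithelium to stroma, gave -0.14 and -0.19. The remaining genes were Col8a2, Col10a1, Col26a1 and Col28a1, with values from -0.20 to 0.10 after intact mating and from -0.13 to 0.02 after vasectomised mating. None of these 17 genes was called in any comparison.

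Over the whole family, 37 of 44 genes had a negative log2 fold-change in each comparison with controls, beside 48.6% of all genes after intact mating and 53.9% after vasectomised mating, and the family medians were -0.13 and -0.13. Of the 44, 9 were lower in every intact-mated pool than in every control and 0 were higher, where 7.91% and 10.4% of all genes were. After vasectomised mating 6 were lower and 1 was higher without overlap, where 4.85% and 7.41% of all genes were. Between the mated groups 23 of 44 were lower after intact mating, beside 44.1% of all genes, with a family median of -0.01. In that comparison 1 gene was lower and 1 was higher without overlap, where 7.49% and 9.04% of all genes were. Genes are not independent replicates.

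Array medians lay between 7.25 and 7.32, and the lowest correlation between arrays of 1 group was 0.983. The control pools were nevertheless not alike in the collagen genes. Controls 1 and 2 both exceeded controls 3 and 4 in 18 of 44 collagen genes, or 40.9%, against 20% of all genes. The stromal fibroblast markers, 10 genes including Pdgfra, Vim and Hoxa10, moved in the same manner. Their median difference from the control mean was 0.42, 0.50, -0.37 and -0.54 in the controls, -0.65, -0.47, -0.39 and -0.09 after intact mating, and 0.01, -0.40, -0.45 and -0.33 after vasectomised mating. Controls 1 and 2 also lay above controls 3 and 4 in the medians of other lists. In controls 1 to 4 these were 0.40, 0.36, -0.40 and -0.45 for blood endothelium markers. They were 0.44, 0.35, -0.32 and -0.48 for macrophage markers, and 0.59, 0.24, -0.46 and -0.41 for fibril-binding matrix proteins. Smooth muscle, epithelium, neutrophil and fat markers did not show that order. In linear intensity, the summed signal of the 10 stromal markers was 4855 to 9700 in the controls, 4683 to 7120 after intact mating and 5455 to 7760 after vasectomised mating. None of the 10 was called in any comparison, and the median log2 fold-changes were -0.45 and -0.22. An unadjusted p under 0.05 in limma was reached by 5 after intact mating, 2 after vasectomised mating and 0 between the mated groups. The shares over all genes were 27.8%, 20% and 17.6%. Without control 4, 4 of the 10 were called lower after intact mating. The part of stromal RNA in the collagen differences was not tested. With controls 3 and 4 alone, the pair with the lower levels, Col6a3 was called at -1.26 after intact mating and -0.98 after vasectomised mating. It was the 1 collagen called lower in each of those comparisons. These fits rest on only that pair of control pools and are no test of the part of stromal RNA. Falls against the pair with the lower levels are smaller by the choice of that pair.

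**Figure D4:**
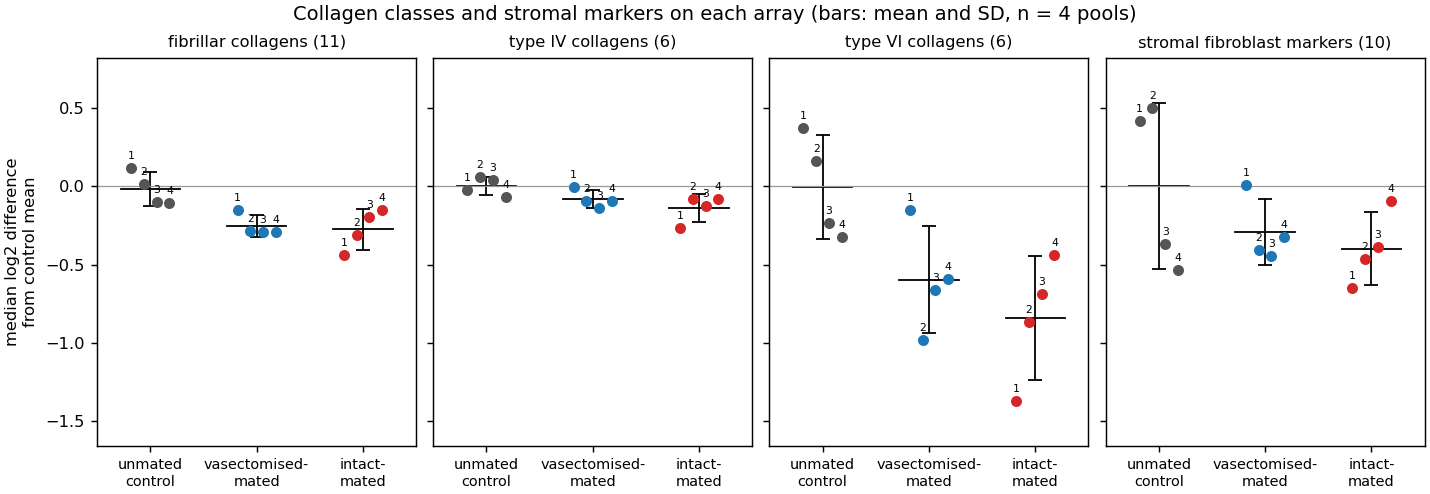
Median log2 difference from the control mean over the 11 fibrillar, 6 type IV and 6 type VI collagens and over 10 stromal fibroblast markers on each array, with replicate numbers, mean and SD of 4 pools. The type VI median reaches -1.37 in intact pool 1, the type IV median stays between -0.27 and 0.06, and controls 1 and 2 lie above controls 3 and 4 for the fibrillar, type VI and stromal genes.

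Markers of other cells in the scraped lining were examined beside these values. Over all genes, 2.78% were called higher and 2.11% lower after intact mating, and 1.19% and 0.657% after vasectomised mating. Between the mated groups these shares were 0.627% and 0.271%. The blood endothelium markers summed to 1545 to 2880 in the controls, 1453 to 2146 after intact mating and 1676 to 2637 after vasectomised mating, with 0 of 10 called. Smooth muscle markers, which can include signal of myometrium carried along, summed to 7094 to 7739, 4552 to 8670 and 5705 to 9621, with 0 of 10 called. Epithelium markers summed to 44135 to 49766, 45151 to 46608 and 43418 to 46359, with 0 of 9 called and all their means above 7.28. The largest differences in these lists were those of Emcn at -0.64 (adjusted p = 0.419), Synpo2 at -0.78 (adjusted p = 0.0788) and Hoxa10 at -0.62 (adjusted p = 0.143) after intact mating, and Krt7 at -0.50 (adjusted p = 0.0104, under 1.5-fold) after vasectomised mating. Of the neutrophil markers 3 of 10 rose after intact mating, 0 after vasectomised mating, and those 3 genes, Cxcr2, Csf3r and S100a9, were also higher after intact than after vasectomised mating. The other 7 were not called. Ly6g, which marks neutrophils, gave -0.44 after intact mating (adjusted p = 0.330). It was lower in every intact-mated than in every vasectomised-mated pool (-0.27, adjusted p = 0.633). S100a8 gave 0.47 after intact mating (adjusted p = 0.0241) and 0.49 between the mated groups (adjusted p = 0.0490), under 1.5-fold and without overlap. Of the 10 markers, 9 were positive after intact mating and 7 between the mated groups. By protein staining, the paper reports more Ly6G-positive cells in the endometrium after intact than after vasectomised mating. The list medians were 0.13 after intact mating, 0.05 after vasectomised mating and 0.09 between the mated groups. The count of neutrophil markers called between the mated groups dropped from 3 to 1 without intact pool 4 or vasectomised pool 3 or 4. The summed neutrophil signal was 1189 to 2183 in the controls, 1556 to 1922 after intact mating and 1397 to 1800 after vasectomised mating. Most of this sum came from Ly6g, with a control mean of 10.02 and an SD of 0.66. The next brightest marker, Camp, had a control mean of 6.88, so the sum mainly follows Ly6g. The macrophage list had 1 of 10 genes called, Cd14 at 1.60 and 1.18, and its summed signal was 5817 to 8309, 9870 to 11680 and 9562 to 10261. Cd68, named after its value was seen, gave 0.45 after intact mating (adjusted p = 0.00631), under 1.5-fold and without overlap. It gave 0.46 after vasectomised mating (adjusted p = 0.0125), also under 1.5-fold and without overlap. Cd68 and Cd14 were the brightest genes of the list by control mean, so the macrophage sum mainly follows them. The medians of the macrophage list were -0.03 and -0.06, with 5 of 10 genes negative in each comparison with controls. Mertk, an uptake receptor named after its value was seen, gave -0.81 after intact mating without overlap (adjusted p = 0.0529). The fat list had 1 of 6 genes called, Pparg at 0.79 and 0.61, the latter call being lost without control 2 or vasectomised pool 1 or 2. It summed to 886 to 1014, 1229 to 1325 and 1076 to 1377, while Adipoq, which defines fat cells, had means of 5.51, 5.45 and 5.47. Pparg was the brightest gene of the list, with a control mean of 8.93, so the fat sum largely follows it. Of the 6 fat markers, 4 were negative in each comparison with controls, and the medians were -0.05 and -0.02. Fabp4, named after its value was seen, gave -0.40 after intact mating without overlap (adjusted p = 0.101). The part of these cell types in the collagen values was not tested.

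Genes that build and handle collagen were read from 6 lists. Among 19 enzymes and chaperones that act on the chains inside the cell, 3 fell and 1 rose after intact mating, and 1 fell and 1 rose after vasectomised mating. The shares over all genes were 2.11% lower and 2.78% higher after intact mating, and 0.657% and 1.19% after vasectomised mating, and apply to the other lists too. Serpinh1, the collagen chaperone HSP47, fell in both (-0.88, adjusted p = 0.0124, and -0.83, adjusted p = 0.0324). Plod2, a lysyl hydroxylase that prepares crosslinks, fell after intact mating (-1.12, adjusted p = 0.0254) and gave -0.93 after vasectomised mating (adjusted p = 0.0976). Sparc, a secreted collagen-binding protein, fell after intact mating (-0.72, adjusted p = 0.0361) and gave -0.43 after vasectomised mating. P3h2, a prolyl 3-hydroxylase with a preference for type IV collagen, rose in both (1.30, adjusted p = 6.57e-05, and 0.93, adjusted p = 0.00269). Of the 19 genes, 11 had a positive log2 fold-change after intact mating and 7 after vasectomised mating, with medians of 0.04 and -0.11. By the adjusted p alone, 5 were lower and 3 higher after intact mating. Between the mated groups 0 were called. There 7 were higher after intact mating and 1 was lower without overlap, where 9.04% and 7.49% of all genes were.

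Among 12 genes of procollagen processing and crosslinking outside the cell, 2 fell in each comparison and 0 rose. Pcolce2, an enhancer of the protease that trims the C-terminal propeptide, fell in both (-1.21 and -0.92). Bmp1, that protease, fell after intact mating (-0.64, adjusted p = 0.0172) and gave -0.47 after vasectomised mating. Adamts14, which trims the N-terminal propeptide, fell after vasectomised mating (-0.61, adjusted p = 0.0363) and gave -0.40 after intact mating. The count of falling enzymes and chaperones dropped from 3 to 1 without control 1, control 2, intact pool 1 or intact pool 2, and that after vasectomised mating from 1 to 0 without control 1, control 2 or vasectomised pool 2, 3 or 4. For the processing genes the count dropped from 2 to 1 without control 1, control 2 or intact pool 1 after intact mating, and without control 1, 3 or 4, vasectomised pool 2, 3 or 4, or intact pool 2 or 3 after vasectomised mating.

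Of 14 proteins that bind fibrils, Lum, a proteoglycan that spaces fibrils, fell after intact mating (-0.97, adjusted p = 0.00886) and gave -0.35 after vasectomised mating (adjusted p = 0.389), and the difference between the mated groups, -0.62, was not called (adjusted p = 0.134). Postn, a matricellular protein that binds type I collagen, rose in both (0.92, adjusted p = 0.0269, and 0.96, adjusted p = 0.0411). The call of Postn was lost without control 2, 3 or 4 in both comparisons, without intact pool 2 or 4 after intact mating, and without vasectomised pool 1, 3 or 4 or intact pool 3 or 4 after vasectomised mating. Of 14 basement membrane partners of type IV collagen, such as laminins and nidogens, 1 rose after intact mating and 0 were called after vasectomised mating. It was Lama3, a laminin chain of epithelia (0.66, adjusted p = 0.00195, a call lost without control 4), which gave 0.45 after vasectomised mating (adjusted p = 0.0379, under 1.5-fold). Agrn and Lamc1, named after their values were seen, gave 0.56 (adjusted p = 0.000195) and 0.44 (adjusted p = 0.00110) after intact mating, under 1.5-fold. Lamc1 was 0.29 higher after intact than after vasectomised mating (adjusted p = 0.0433), also under 1.5-fold. Of the 14 partners, 8 had a negative log2 fold-change after intact mating.

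Of 9 collagen receptors 1 was called, Itga2, the alpha chain of an integrin that binds collagen on epithelia and platelets. It rose in both comparisons (1.21, adjusted p = 5.47e-06, and 0.75, adjusted p = 0.000828), and was 0.46 higher after intact than after vasectomised mating, under 1.5-fold (adjusted p = 0.0192). None of 7 collagen-degrading proteases was called. An unadjusted p under 0.05 in limma was reached by 2 after intact mating, beside 27.8% of all genes. It was reached by 0 after vasectomised mating and 0 between the mated groups, beside 20% and 17.6% of all genes. The largest difference among the proteases was that of Mmp2, a gelatinase, at -0.62 after intact mating (adjusted p = 0.497). The medians of these 6 lists lay between -0.16 and 0.09 after intact mating and between -0.12 and 0.10 after vasectomised mating.

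**Figure D5:**
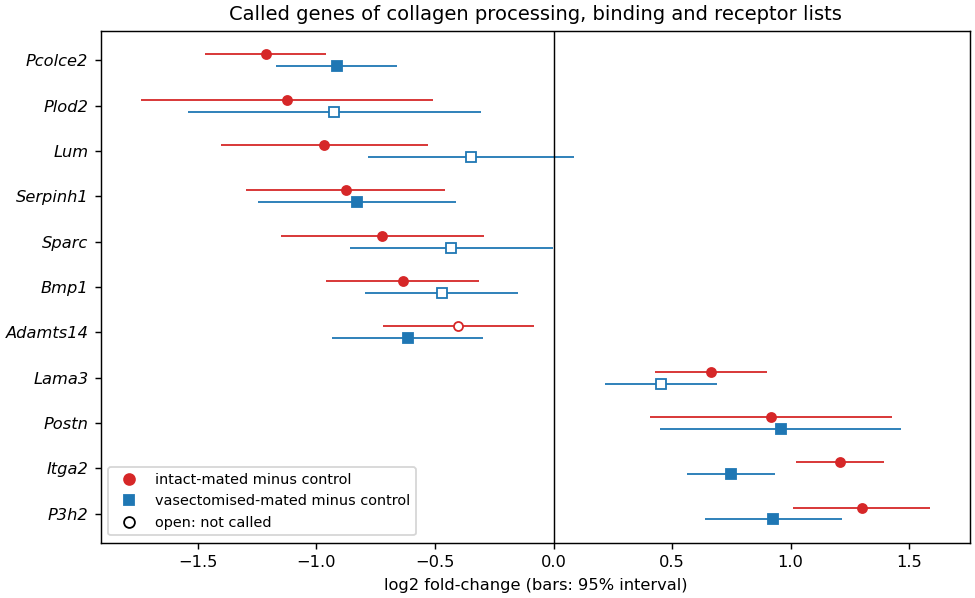
Log2 fold-change with its 95% interval for the 11 genes called in the lists of collagen modification, processing, binding, basement membrane and receptors, after mating with intact males (red circles) and vasectomised males (blue squares) against controls, filled where called. Pcolce2 and Serpinh1 fell and P3h2, Itga2 and Postn rose in both comparisons.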

How the data were processed

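The values are log2 intensities of 35556 array rows as deposited. Per the study's methods, the authors used Partek Genomics Suite to correct background by RMA, adjust for the GC content of probes and summarize probes by their mean. No version or genome build is given in the sources used here. Groups came from the sample labels. The per-array columns not used numbered 0. Rows were joined to symbols through the supplied array annotation, and 21698 of 21789 rows with 1 symbol were matched to the reference table. Another 1621 rows had several symbols and 12146 had none.

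limma 3.58.1 (R 4.3.3) fitted a mean for each group to every row, with all 12 arrays in the fit and moderated variances (prior degrees of freedom 3.26, residual 9). Benjamini-Hochberg adjustment covered all rows. A call required an adjusted p no higher than 0.05 together with a 1.5-fold change or more, as in the methods. Percentages of all genes refer to 19938 genes, each by its row with the highest mean. Intervals are 95%. The code was tested on simulated data. The number of arrays limits the precision.

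The members and lists were chosen with earlier results of these data known. Of 146 genes named in 13 lists of partners and markers, 139 were used here. Named genes were all called, fibrillar, type IV and type VI collagens and, of each other list, the called genes up to 4 with the largest absolute log2 fold-change or, with 0 called, the gene with the largest. The 27 alternatives covered normalization, centring, moderation, array weights, a replicate block, the groups fitted, dim rows, rows corrected over, rows per gene, the fold threshold, pairs of controls and each of 12 arrays left out. Promoter windows came from RefSeq.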

Additional observations from a re-analysis of the deposited data

Results flagged for a closer look

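Over 132 groups of 4 arrays, 1 per collagen gene and condition, the highest or lowest array stood apart from the others in 9, where about 6.6 would be flagged by chance. The value given is the gap to the nearest array over the range of the group. Among the fibrillar genes intact pool 1 was low for Col1a2 (0.891, at 9.42 against 10.15 to 10.24) and for Col5a2 (0.84, at 7.29 against 7.53 to 7.58). Vasectomised pool 1 was high for Col5a3 (0.946, at 7.44 against 7.30 to 7.31), intact pool 3 was high for Col11a2 (0.873, at 7.71 against 7.57 to 7.59), and control 1 was high for Col27a1 (0.905, at 8.31 against 8.16 to 8.18). Intact pool 4 was high for the type VI gene Col6a6 (0.858, at 8.26 against 8.05 to 8.08), though still below every control. For the type IX genes, control 3 and intact pool 3 were high for Col9a2 (0.862 and 0.842) and vasectomised pool 2 was high for Col9a3 (0.835).

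Of the genes on the lists, 3 neutrophil markers responded more to intact than to vasectomised males by the limma contrast of the mated groups. Over all genes, 0.627% were called higher in that contrast. The log2 differences were 1.92 for Cxcr2 (adjusted p = 0.00568), 1.08 for Csf3r (adjusted p = 0.0236) and 1.17 for S100a9 (adjusted p = 0.0235). The other 7 of 10 markers were not called. Of these, S100a8 gave 0.49 (adjusted p = 0.0490), under 1.5-fold. In the other direction lay 3 markers, Ly6g at -0.27 (adjusted p = 0.633), Mmp8 at -0.05 and Mpo at -0.03.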

How the results depend on the processing

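The count of collagen genes that fell after intact mating was 4 and became 1 without variance moderation, when the 2 groups were fitted alone, at a fold-change of at least 2 or with controls 3 and 4 only. It became 2 with array weights, 7 without a fold threshold and 10 with controls 1 and 2 only, and ran from 1 to 5 over the analyses that left out 1 array. The count that rose after intact mating was 1 and became 0 without variance moderation, with array weights, with the 2 groups alone, at a fold-change of at least 2 or with controls 1 and 2 only, 2 without a fold threshold, and 0 to 1 without 1 array. The count that rose after vasectomised mating was 1 and became 0 under the same settings apart from array weights, and 0 to 1 without 1 array, and the count that fell was 1 and became 2 without a fold threshold. The counts between the mated groups stayed at 0 in each of 25 alternatives. The count that fell after intact mating became 6 with dim rows removed, with 1 row per gene or with the mean of all rows of a gene. Col1a2 was among the genes called in these settings. Correction over rows with 1 symbol left that count at 4. None of these settings changed a count by over 1.5 times.

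Replicate numbers did not pair the samples. The correlation of deviations between arrays of the same number ran from -0.255 to 0.205, above 0.1 in 2 of 12 pairs, and 3 of 12 arrays correlated best with their own number. With the replicate block, 1 collagen gene fell and 0 rose after intact mating, and 0 rose after vasectomised mating.

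Single genes were recomputed for the fibrillar, type IV and type VI collagens and Col12a1 against controls, and for the 5 called collagens between the mated groups. Of these, signs turned where the log2 fold-change lay between -0.16 and 0.05, and the cause was not tested. After intact mating, Col4a1 became 0.0077 with arrays centred on their medians and 0.21 with controls 3 and 4 only, Col4a2 became 0.0019 with quantile normalization, 0.0070 with centred arrays and 0.12 with controls 3 and 4 only, and Col6a5 became 0.011 with quantile normalization, 0.012 with centred arrays and 0.091 with controls 1 and 2 only. After vasectomised mating, with controls 1 and 2 only, Col4a1 became -0.17, Col4a2 -0.11, Col4a4 -0.0078, Col4a5 0.036 and Col6a5 0.070. Col5a2 became 0.064 with controls 3 and 4 only, Col4a2 became -0.014 with quantile normalization and Col4a4 -0.0074 with centred arrays. Over the analyses without 1 array after intact mating, the log2 fold-change of Col2a1 ran from -0.025 to 0.040, of Col4a1 from -0.097 to 0.10, of Col4a2 from -0.094 to 0.095 and of Col6a5 from -0.049 to 0.054. After vasectomised mating, that of Col5a3 ran from -0.086 to 0.0063, of Col4a1 from -0.066 to 0.16, of Col4a2 from -0.098 to 0.077, of Col4a4 from -0.027 to 0.038 and of Col6a5 from -0.070 to 0.022. Between the mated groups, Col12a1 ran from -0.18 to 0.021. The median of the fibrillar genes moved to -0.44 and -0.38 with controls 1 and 2 only and, after vasectomised mating, to -0.14 with controls 3 and 4 only. That of the type VI genes ran from -1.19 to -0.48 after intact mating and from -0.95 to -0.25 after vasectomised mating, the ends being controls 1 and 2 only and controls 3 and 4 only.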
